A study of Sus scrofa with 9 samples.

Results

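The 4 casein genes CSN1S1, CSN1S2, CSN2 and CSN3 were followed in the mammary gland of sows from late pregnancy into lactation. Their members were the probe sets of the porcine GeneChip whose platform annotation gives 1 of these symbols and no other. There were 4 such probe sets, 1 for each gene, among 23999 endogenous probe sets. All 4 were bright enough to enter the tests, which covered 15519 probe sets.

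Caseins are the main proteins of milk. They are secreted as phosphoproteins that bind calcium and phosphate and assemble into micelles, which carry these minerals to the young. The alpha-s1, alpha-s2 and beta caseins (CSN1S1, CSN1S2 and CSN2) are the calcium-sensitive members. Kappa-casein (CSN3) sits on the micelle surface and keeps the particle in solution. Secretory epithelial cells of the gland make them under prolactin, whose receptor signals through JAK2 to the transcription factors STAT5A and STAT5B, together with glucocorticoid and insulin. In the RefSeq gene table of the assembly Sscrofa11.1 the 4 genes lie in 1 cluster, in the order CSN1S1, CSN2, STATH, CSN1S2, PRR27, ODAM and CSN3 when non-coding genes are left out.

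The tissue came from 6 Large White sows under standard feeding, with no further treatment named. Every sow gave 3 biopsies, at 17 days before parturition (day -17), at 1 day (day 1) and at 17 days (day 17) of lactation, and the labels allow 2 days either way for the first and the last. The glands used were the front ones on the right. RNA of 2 sows was combined by equal volume, so each day had 3 pooled samples, 1 array each, and there were 9 arrays in all. Whether pools 1 to 3 hold the same sows on each day is not stated, and p-values measure only the spread between pools. Values are signals, an array brightness on a linear scale, and differences are on the log2 scale with their standard errors from limma. Every adjusted p from limma is a two-sided Benjamini-Hochberg value over all 15519 tested probe sets. In bulk tissue a change in the share of secretory cells and a change in casein RNA per cell cannot be told apart.

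The number of arrays sets the precision. Rank correlations between pools of 1 day were 0.954 to 0.976 (Spearman, across probe sets). The arrays had a trimmed mean signal of 500.088 to 500.112 each. Hybridization controls of E. coli sequence, 21 probe sets, rose in brightness by 0.32 log2 between day -17 and day 1 and by 0.96 between day 1 and day 17. All 8 luminal epithelial markers that were listed, among them KRT8, KRT18, EPCAM and CDH1, were bright enough to be tested.

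All 4 casein genes were brighter on day 1 than on day -17. On the deposited scale CSN1S1, CSN2 and CSN3 were brighter again on day 17. That step turned to the other direction when arrays were scaled to the E. coli controls, where none of them passed. The median of all tested probe sets over that step was -0.967 with this scaling. The first step was unequal: CSN1S2 rose 17.6-fold, CSN2 3.51-fold, CSN3 2.97-fold and CSN1S1 1.61-fold (n = 3 pools a day). The second step had folds of 1.68 to 1.79 across the 4 genes on the deposited scale, and that of CSN1S2 did not pass the test. By an F test in limma, all 4 differed among the 3 days, with adjusted p from 1.87e-06 to 7.01e-05, where 45.3% of the tested probe sets did.

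**Figure D1:**
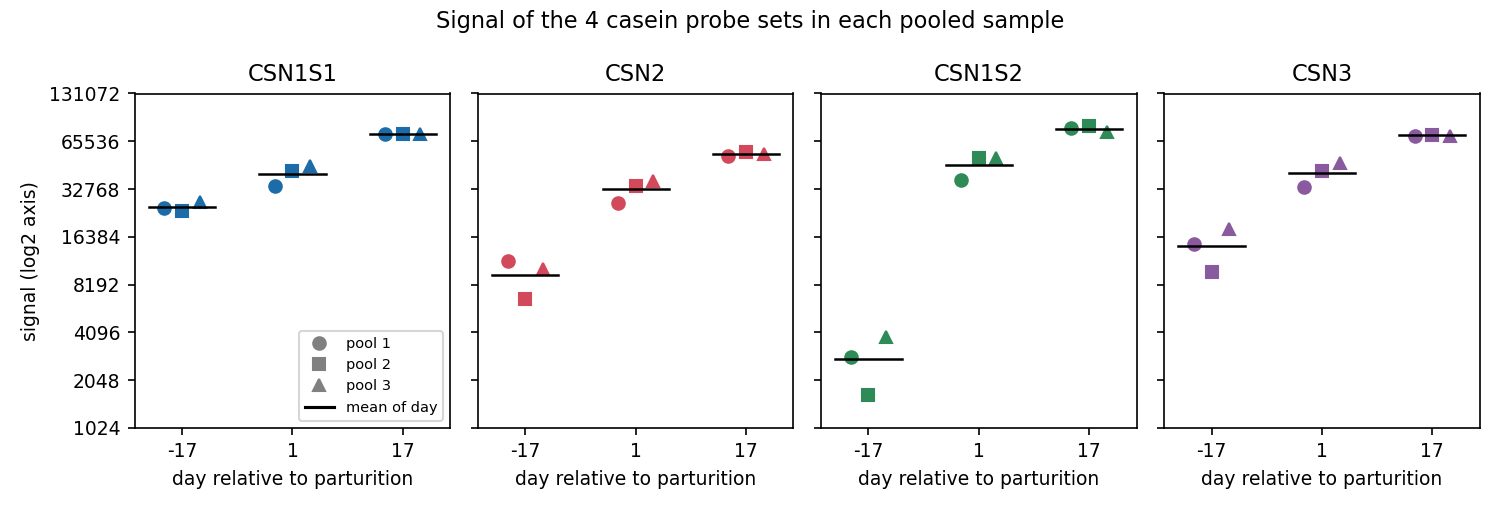
Signal of each casein probe set (vertical axis, log2 spaced) on day -17, day 1 and day 17 relative to parturition, with 1 point for each pooled sample and a line at the day's mean. CSN1S2 starts between 1650 and 3809 and ends between 74759 and 82250, whereas CSN1S1 starts between 23804 and 27138 and ends between 72383 and 72751.

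CSN1S1, the alpha-s1 casein gene, was already bright before farrowing. Its day -17 signals were 24862, 23804 and 27138 in pools 1, 2 and 3. On day 1 they were 34002, 42793 and 45746. On day 17 they were 72578, 72751 and 72383. No day overlapped another, and the day 17 pools were nearly identical, with a coefficient of variation of 0.254%. Only 4 of the 15519 tested probe sets varied less on that day, and the median over all tested probe sets was 14.7%. Bright probe sets were tight on that day in general. Over the 100 brightest endogenous probe sets, caseins left out, the median was 3.35% on day 17, 13.4% on day 1 and 8.16% on day -17.

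CSN1S2, the alpha-s2 casein gene, had the largest relative rise. Its day -17 signals were 2854, 1650 and 3809, between 17.7 and 44.1 times the level used to call a probe set dim. On day 1 they were 37194, 51413 and 51256. On day 17 they reached 79059, 82250 and 74759. The 3 days did not overlap, and on day 17 pool 2 this was the brightest endogenous probe set of its array.

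CSN2, the beta casein gene, had day -17 signals of 11555, 6611 and 10217. Its day 1 signals were 26660, 34305 and 36791, and its day 17 signals were 52699, 55734 and 54609. CSN3, the kappa casein gene, had day -17 signals of 14768, 9836 and 18255. Its day 1 signals were 33772, 42716 and 48140, and its day 17 signals were 71062, 72135 and 71035. For both genes every day 1 pool lay above every day -17 pool and below every day 17 pool.

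On day -17 and day 1 the pools deviated together across the 4 genes. On day -17, pool 2 was the lowest for CSN1S1, CSN1S2, CSN2 and CSN3 alike, and on day 1 pool 1 was the lowest for all 4. The same pools were the lowest for the whey protein genes WAP, LALBA, PAEP and LTF, so this was not particular to the caseins. On day 17 the lowest was pool 1 for CSN2 and pool 3 for the other casein genes. The spread between pools narrowed with time. The SD of the log2 signal of CSN1S2 was 0.61 on day -17, 0.27 on day 1 and 0.069 on day 17, and that of CSN3 was 0.45, 0.26 and 0.013. CSN1S1 was the exception before farrowing, with an SD of 0.096 on day -17 against 0.22 on day 1.

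The step from late pregnancy to day 1 spans farrowing and the start of milk secretion. All 4 casein genes rose, and the 3 day 1 values of each lay above its 3 day -17 values. Over all tested probe sets 24.1% changed, 12% were higher, and for 19.3% the day 1 values all lay above the day -17 values. CSN1S2 rose by 4.14 ± 0.26 on the log2 scale (limma adjusted p = 7.36e-06), and 26 of the 15519 probe sets had a larger rise. CSN2 rose by 1.81 ± 0.19 (limma adjusted p = 0.000264). CSN3 rose by 1.57 ± 0.20 (limma adjusted p = 0.000743). CSN1S1 rose by 0.68 ± 0.12 (limma adjusted p = 0.00308), and 11.7% of the tested probe sets had a larger rise. The rise of CSN1S1 was smaller under 2 other scalings, at 0.40 after quantile normalization and 0.36 with E. coli scaling (limma adjusted p for the latter 0.0394). All 4 calls held under each of the 19 alternatives tried, including the loss of any 1 pool. On day 1, CSN1S2 stood at 77.5% to 80.3% of the brightest signal of its array and CSN1S1 at 64.5% to 73.4%. On day -17 CSN1S2 had stood at 4.17% to 7.1% and CSN1S1 at 50.1% to 61.9%. The part of the upper end of the signal range in these unequal rises was not tested.

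The second comparison set day 17 of lactation against day 1. On the deposited scale CSN1S1 was higher by 0.84 ± 0.12 (limma adjusted p = 0.00287), CSN3 by 0.80 ± 0.20 (0.0298) and CSN2 by 0.75 ± 0.19 (0.0307). CSN1S2 differed by 0.77 ± 0.26, which did not pass (limma adjusted p = 0.0714), with a 95% interval of 0.20 to 1.34. It passed in a fit of the 6 compared arrays alone (0.0168) and without day -17 pool 2 or 3 (0.0152 and 0.0419). Thus 3 of the 4 genes passed, where 13.6% of the tested probe sets changed and 7.02% were higher. CSN1S1, CSN2 and CSN3 were higher at both successive steps, as were 2.17% of the tested probe sets. In all 4 genes the day 17 values lay above the day 1 values, as in 18.2% of the tested probe sets. The count fell to 1, CSN1S1, without day 1 pool 1 or 2 or without any 1 of the day 17 pools, where the adjusted p of CSN2 was 0.0569 to 0.0893 and that of CSN3 0.06 to 0.0834. CSN2 and CSN3 also missed the threshold with median centring (0.063 and 0.0597) and without the intensity trend (0.0623 and 0.0603). After quantile normalization no casein gene passed, and the differences were 0.03 to 0.13. Scaled to the E. coli controls, all 4 turned to the other direction, from -0.21 for CSN2 to -0.12 for CSN1S1, and none passed.

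**Figure D2:**
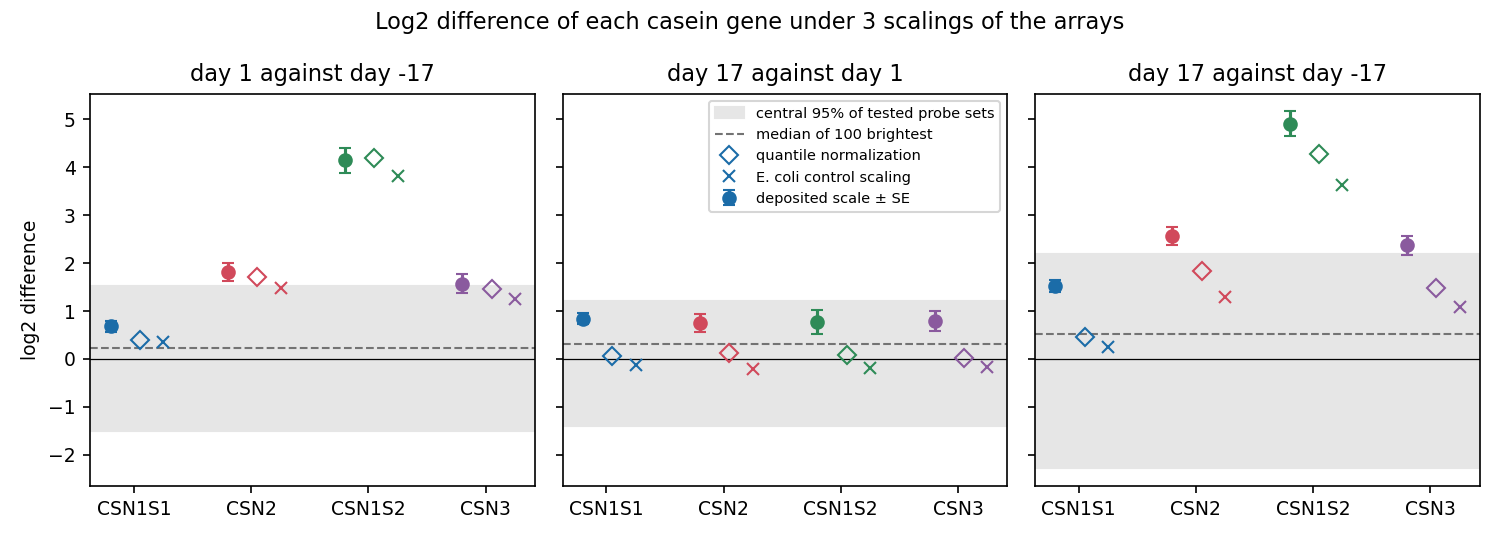
Log2 difference of each casein gene in the 3 comparisons: filled circles give the deposited scale with the standard error, diamonds quantile normalization and crosses scaling to the E. coli controls. The grey band holds the central 95% of tested probe sets and the dashed line the median of the 100 brightest others; between day 1 and day 17 the circles lie at 0.75 to 0.84 and the crosses below 0.

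Other bright probe sets were set beside this second step. The 100 brightest endogenous probe sets over all arrays, caseins left out and chosen after the values were seen, had a median difference of 0.31 between day 17 and day 1, and 36 of them were called higher, 1 lower and 63 neither, where 7.02% of all tested probe sets were higher. That median was -0.07 after quantile normalization and -0.65 with E. coli scaling. For day 1 against day -17 their median was 0.22. The brightest signal of an array was 39527 to 54155 on day -17, 46317 to 66327 on day 1 and 82250 to 83676 on day 17. On day 17, CSN1S1 stood at 86.5% to 88.5% of that brightest signal, CSN3 at 84.9% to 87.7%, CSN1S2 at 89.3% to 100% and CSN2 at 63% to 67.8%. Between 14 and 15 endogenous probe sets reached 80% of the brightest on each day 17 array, against 1 to 6 on the other arrays. The part of the scaling and of the upper end of the signal range in the second step was not tested.

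The third comparison set day 17 against late pregnancy. CSN1S2 was higher by 4.91 ± 0.26 on the log2 scale, 30.0-fold (limma adjusted p = 9e-07), CSN2 by 2.56 ± 0.19 (1.05e-05), CSN3 by 2.37 ± 0.20 (2.38e-05) and CSN1S1 by 1.52 ± 0.12 (1.18e-05). All 4 passed as higher, where 46.5% of the tested probe sets changed, 21.7% were higher, and in 27.5% the day 17 values all lay above the day -17 values. After quantile normalization CSN1S1 was higher by 0.46 and CSN3 by 1.48. Scaled to the E. coli controls the differences were 3.63 for CSN1S2, 1.28 for CSN2, 1.09 for CSN3 and 0.25 for CSN1S1, and CSN1S1 no longer passed (limma adjusted p = 0.08). The 3 comparisons share arrays, so their values are not independent of each other. On the deposited scale, day 1 had reached 84.3% of the log2 rise to day 17 in CSN1S2, 70.7% in CSN2, 66.3% in CSN3 and 44.9% in CSN1S1. After quantile normalization these shares were 98.1%, 93%, 98% and 87.4%, and with E. coli scaling, where day 1 lay above day 17, they were 105%, 116%, 115% and 148%.

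The ratio of 2 casein signals on the same array does not depend on the factor by which that array was scaled. Its level has no meaning, since the probes differ, but its change between days shows that the 2 signals changed unequally. The part of the upper end of the signal range in such changes was not tested. Of the 6 pairs, 5 differed among the days (exact permutation test of the F statistic over 1680 assignments, adjusted over the 6 pairs, smallest possible unadjusted p 0.00357). The log2 ratio of CSN1S1 to CSN1S2 fell by 3.46 from day -17 to day 1 (exact permutation adjusted p = 0.0286 over the 3 days). The ratio of CSN1S1 to CSN2 fell by 1.13 and that to CSN3 fell by 0.89 (exact permutation adjusted p = 0.0107 for each). The ratio of CSN1S2 to CSN3 rose by 2.57 (exact permutation adjusted p = 0.0375), and that of CSN2 to CSN1S2 fell by 2.33 (0.0386). The calls of these 5 pairs held after quantile normalization, with a pseudocount of 16 and without any 1 pool. They did not hold when days were permuted only within a pool number, a replicate block of 216 assignments whose smallest p is 0.0278 (exact permutation adjusted p 0.0556 to 0.133).

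The beta and kappa genes were the pair whose ratio did not pass. The log2 ratio of CSN2 to CSN3 was -0.35, -0.57 and -0.84 on day -17, -0.34, -0.32 and -0.39 on day 1, and -0.43, -0.37 and -0.38 on day 17. It changed by 0.24 to day 1, with an exact 90% interval of -0.03 to 0.52, and the exact permutation test over the 3 days gave an adjusted p of 0.154. Without day -17 pool 1, or after quantile normalization, that adjusted p was 0.0214.

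Over the step from day 1 to day 17 the ratios moved by 0.09 log2 or less. The largest shift was that of CSN1S1 over CSN2, 0.09 with an exact 90% interval of 0.03 to 0.15. For CSN1S2 over CSN3 it was -0.03 with an interval of -0.19 to 0.10, and for CSN2 over CSN1S2 -0.02 with an interval of -0.11 to 0.13. In exact permutation tests of 3 against 3 pools, which cannot give a p under 0.1, the 6 adjusted p-values were 0.3 to 0.9. CSN1S1 over CSN2 and CSN1S1 over CSN3 reached that lowest p of 0.1 before adjustment. For day 1 against day -17 the same exact permutation test gave adjusted p-values of 0.12 to 0.2. With that floor no ratio could pass at either step, so this test does not separate the steps. The ratio calls given earlier come from the test over the 3 days. On day 17 the signals of CSN1S1, CSN1S2 and CSN3 lay at 84.9% to 100% of the brightest signal of their array, where compressed signals would hold a ratio fixed, and this was not tested. The 6 exact 90% intervals of the step from day 1 to day 17 ran from -0.19 at the lowest to 0.22 at the highest. The interval for CSN1S1 over CSN1S2 in the step from day -17 to day 1 was -4.12 to -2.96.

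**Figure D3:**
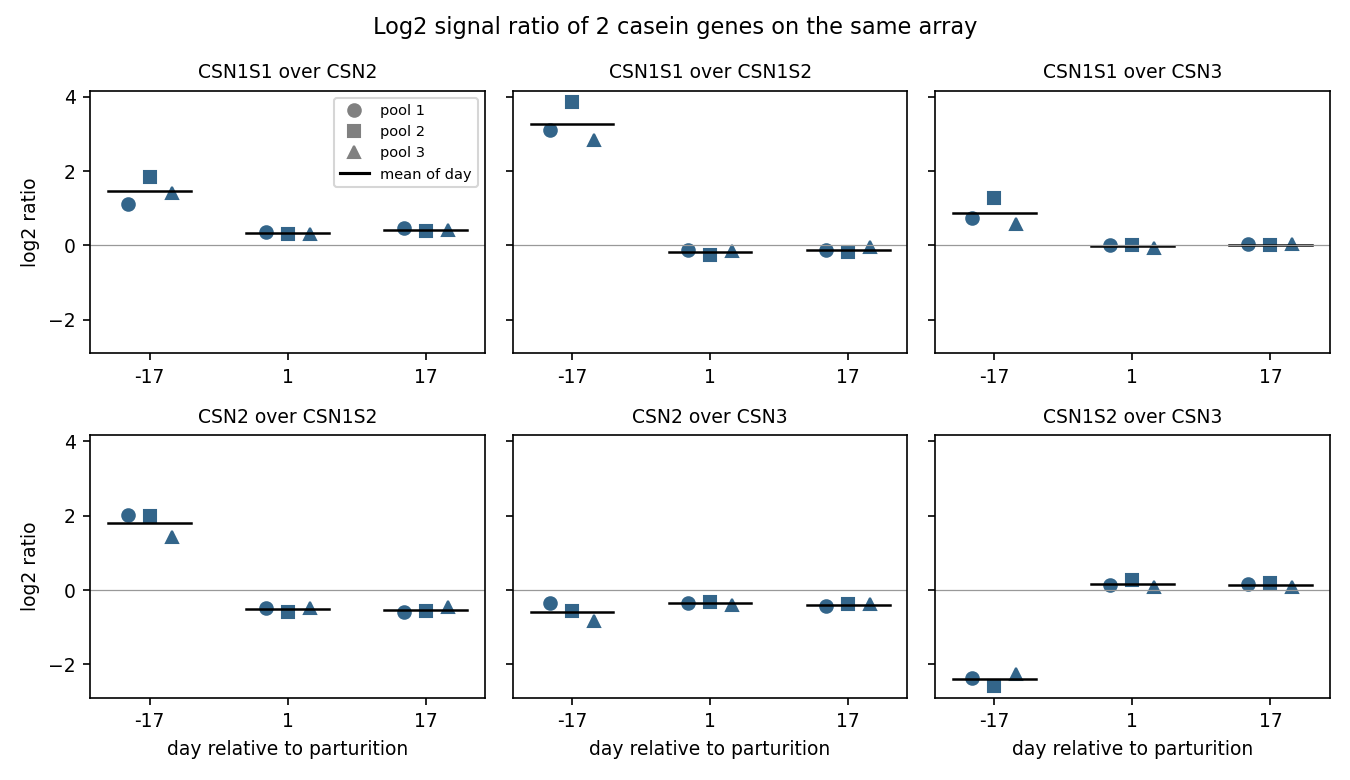
Log2 ratio of 2 casein signals on the same array (vertical axis) by day, for the 6 pairs of casein genes, with 1 point for each pooled sample and a line at the day's mean. Those with CSN1S2 change most between day -17 and day 1, by -3.46, -2.33 and 2.57, and all 6 stay within 0.09 of their day 1 mean on day 17.

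Set against its own day 17 mean, the casein genes stood on day 1 at 56.3% ± 8.42 for CSN1S1, 60% ± 9.72 for CSN2, 59.2% ± 10.4 for CSN1S2 and 58.2% ± 10.2 for CSN3 (SD, n = 3 pools). On day -17 the same measure was 34.8% ± 2.35 for CSN1S1, 20.0% ± 5.92 for CSN3, 17.4% ± 4.71 for CSN2 and 3.52% ± 1.37 for CSN1S2. Among the whey proteins, the soluble proteins of milk, WAP (whey acidic protein) stood at 56.7% ± 8.61, LALBA (alpha-lactalbumin) at 57.9% ± 11.4 and PAEP (beta-lactoglobulin) at 59.2% ± 12.4 on day 1. Their day -17 levels were 1.39%, 1.75% and 47.8%. LTF, the iron-binding lactoferrin, stood at 86.5% ± 17.7 on day 1. All these percentages are on the deposited scale. After quantile normalization the caseins differed by only 0.03 to 0.13 log2 between day 1 and day 17. With E. coli scaling the caseins and the whey genes lay lower on day 17 than on day 1. The part of the scaling and of the upper end of the signal range in these percentages was not tested.

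**Figure D4:**
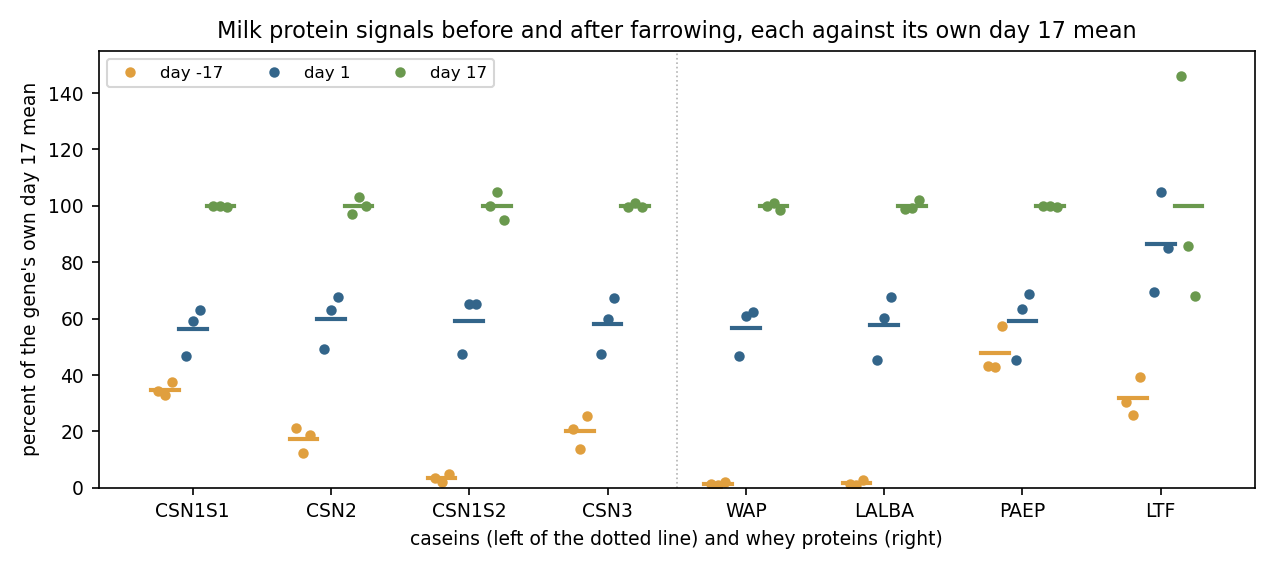
Signal of each casein gene (left) and whey protein gene (right) as a percent of that gene's own day 17 mean (vertical axis), with 1 point for each pooled sample and a line at the mean. On day 1 the means of the 4 caseins, WAP, LALBA and PAEP lie between 56.3% and 60%, while their day -17 means run from 1.39% to 47.8%. All signals are on the deposited scale.

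Of the 4 whey genes, 3 were higher on day 1 than on day -17 (median 3.30 log2), 2 were higher on day 17 than on day 1 (median 0.79) and 4 were higher on day 17 than on day -17 (median 3.78). Over all tested probe sets 12%, 7.02% and 21.7% were higher, with medians of -0.07, -0.0092 and -0.08. With E. coli scaling the higher whey genes numbered 3, 0 and 2, where 912, 91 and 473 of all tested probe sets were higher. WAP and LALBA rose by 5.41 ± 0.24 and 5.15 ± 0.30 to day 1 (limma adjusted p = 7.77e-07 and 4.4e-06), and LTF by 1.44 ± 0.27 (limma adjusted p = 0.00445). PAEP differed by 0.30 ± 0.17 (0.212), but passed without day 1 pool 1 (0.0186). From day 1 to day 17, WAP was higher by 0.83 ± 0.24 and PAEP by 0.78 ± 0.17 (limma adjusted p = 0.0425 and 0.0148). LALBA differed by 0.81 ± 0.30 and LTF by 0.15 ± 0.27 (limma adjusted p = 0.0947 and 0.736). WAP lost its call without any 1 of the day 1 or day 17 pools (0.071 to 0.108) and PAEP without day 17 pool 3 (0.0504), whereas LALBA passed without day -17 pool 2 (0.0377) or 3 (0.0264) in the 6 compared arrays alone (0.0163) and with the pool number as a replicate block (0.0498). WAP and PAEP also missed the threshold after quantile normalization (0.911 and 0.0772). All 4 whey genes turned to the other direction with E. coli scaling over this step, as the caseins did. LTF passed there as lower (-0.80, limma adjusted p = 0.0217), whereas no casein gene passed. From day -17 to day 17, PAEP rose by 1.08 ± 0.17 and LTF by 1.60 ± 0.27 on the deposited scale (limma adjusted p = 0.00063 and 0.00103). Both lost that call with E. coli scaling, where PAEP turned to -0.20 and LTF stood at 0.32.

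The genes listed for casein transcription and hormone signalling showed no common rise. The list held 25 genes, of which 21 were measured and 17 tested. On day 1 against day -17, 1 was higher, 4 were lower and 12 did not pass (median -0.43), where 12% of all tested probe sets were higher and 12.1% lower. On day 17 against day 1 the counts were 1, 1 and 15 (median -0.10), where 7.02% and 6.61% of all passed. On day 17 against day -17 they were 2, 6 and 9 (median -0.40), where 21.7% and 24.8% did. With E. coli scaling the numbers of lower genes were 7, 16 and 16. Of all tested probe sets, 5441, 11723 and 12968 were called with that scaling, and only 912, 91 and 473 of these were higher. The median of all tested probe sets was then -0.385, -0.967 and -1.36, so the lower counts of the list are relative to that shift.

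STAT5A and STAT5B had probe sets that disagreed. The brightest probe set of STAT5B was lower on day 1 than on day -17 (log2 difference -0.73 ± 0.22, limma adjusted p = 0.0381). Its other probe set was higher on day 1 (0.82, adjusted p = 0.00583) and higher still on day 17 against day -17 (1.21, adjusted p = 0.000263). The lower call was lost without day -17 pool 2 or 3, any 1 of the day 1 pools or day 17 pool 1 (adjusted p 0.0544 to 0.129). The brightest probe set of STAT5A was lower on day 17 than on day -17 (-0.82 ± 0.25, limma adjusted p = 0.0233), lost without day -17 pool 2 or day 17 pool 1 or 3 (0.0703 to 0.0834). Another of its 3 probe sets was higher (0.74, adjusted p = 0.011). The brightest probe set of STAT5A passed as lower on day 1 against day -17 with the pool number as a replicate block (0.0342), against 0.0898 without it. No direction was therefore drawn for STAT5A or STAT5B. The probe set of PRLR, the prolactin receptor, stayed below the level used for testing on all 9 arrays, at signals of 6.9 to 26.7, and was not tested. Signals of NR3C1, the glucocorticoid receptor, were 329, 378 and 468 on the 3 days in mean, and none of its 3 differences passed (limma adjusted p from 0.087 to 0.523). For day 17 against day -17 its difference of 0.56 passed with the pool number as a fixed replicate block (0.0324), after quantile normalization (0.0397) and without day -17 pool 1 (0.0156), and with E. coli scaling it passed in the other direction (-0.72, 0.0188).

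CEBPB and CEBPD, both C/EBP transcription factors, moved in opposite directions. CEBPB was lower than on day -17 both on day 1 (log2 difference -0.62 ± 0.14, limma adjusted p = 0.0126) and on day 17 (-0.74 ± 0.14, limma adjusted p = 0.00227). CEBPD was higher on day 1 than on day -17 (0.99 ± 0.24, limma adjusted p = 0.0163), lost without day -17 pool 3 (0.0637) or with E. coli scaling (0.0842). On day 17 it was higher than on day -17 by 0.88 ± 0.24 (limma adjusted p = 0.0136), lost without day -17 pool 3 or day 17 pool 1 (0.0547 and 0.0544) and turned to -0.40 with E. coli scaling. EGR1, an early response transcription factor, was lower on day 17 than on day 1 and on day -17 (-1.69 ± 0.32 in both, limma adjusted p = 0.00876 and 0.00188). NFIB, a nuclear factor I family member, was higher on day 17 than on day 1 by 0.60 ± 0.14 (limma adjusted p = 0.023) and than on day -17 by 0.73 ± 0.14 (0.0025), but both turned with E. coli scaling (-0.36 and -0.54). The first of these was also lost without day 17 pool 1 or 3 (0.0748 and 0.0863), with median centring (0.0532), without the intensity trend (0.0544) and over the mean of its 2 probe sets (0.0748). Over that mean the second was lost too (0.37, adjusted p = 0.0525), and its other probe set had the opposite sign. SOCS1, an inhibitor of cytokine signalling, was dim on day 17, at 15 to 71, and lower there than on day -17 (-1.58 ± 0.53, limma adjusted p = 0.0325). That call was lost without any 1 of the day -17 pools or day 17 pool 1 or 2 (0.054 to 0.112), and the other probe set had the opposite sign.

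Of the genes that modify caseins or supply micelle minerals, several were higher on day 1 than on day -17. Of the 24 listed, 9 were measured and tested. On day 1 against day -17, 5 were higher, 0 lower and 4 did not pass (median 1.10), where 12% of all tested probe sets were higher and 12.1% lower. On day 17 against day -17, 5 were higher, 1 lower and 3 did not pass (median 1.32), where 21.7% and 24.8% were. On day 17 against day 1, 1 was higher and 1 lower (median 0.38), where 7.02% and 6.61% were. With E. coli scaling the counts were 5 higher and 1 lower, 3 and 4, and 0 and 4 in these 3 comparisons. The median of all tested probe sets with that scaling was -0.385, -1.36 and -0.967, so these counts are relative to that shift. SLC34A2, a sodium phosphate cotransporter, had signals of 1149, 720 and 648 on day -17, of 15774, 9341 and 17668 on day 1 and of 21889, 24704 and 21373 on day 17. It rose by 4.08 ± 0.26 to day 1 and stood 4.80 ± 0.26 higher on day 17 than on day -17 (limma adjusted p = 7.95e-06 and 1.06e-06), with no overlap between the days. ST6GALNAC4, a sialyltransferase, rose by 2.26 ± 0.20 to day 1 (limma adjusted p = 6.98e-05). ATP2C2, a calcium and manganese pump of the secretory pathway, was higher on day 17 than on day -17 by 3.37 ± 0.40 (limma adjusted p = 0.000145). Its step from day 1 to day 17, 1.5 ± 0.40 (limma adjusted p = 0.0348), was lost without day -17 pool 3, day 1 pool 2 or 3, or any 1 of the day 17 pools (0.0504 to 0.101) and with E. coli scaling. CALU, a calcium-binding protein of the endoplasmic reticulum, was lower on day 17 than on day 1 (-0.83 ± 0.22, limma adjusted p = 0.0349) and than on day -17 (-0.72 ± 0.22, 0.0225). The first was lost without day -17 pool 3, day 1 pool 1 or 3, or any 1 of the day 17 pools (0.0529 to 0.113), the second without day -17 pool 1 or 3 or day 17 pool 2 or 3 (0.0548 to 0.0784), and the mean over its 3 probe sets had the opposite sign in the second. C1GALT1C1 and ST3GAL1, which act in O-glycan assembly, were the other 2 that were higher in both comparisons with day -17, and are named after their values were seen.

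Another list held genes that neighbour the caseins or belong to related calcium-binding families. Of 18 listed, 10 were measured and 5 tested: AMBN, SPP1, JCHAIN, SPARCL1 and SPARC. In each comparison 1 was higher and 0 lower, with medians of 0.10 for day 1 against day -17, -0.22 for day 17 against day 1 and 0.37 for day 17 against day -17. Over all tested probe sets 12%, 7.02% and 21.7% were higher. A count of 1 among 5 is too small to set the list apart from these shares. With E. coli scaling 2 were lower in both comparisons with day 17. The median of all tested probe sets was then -0.967 against day 1 and -1.36 against day -17. JCHAIN, the joining chain of secreted immunoglobulins and a gene beyond CSN3 on the same chromosome, had means of 7834 on day -17, 8532 on day 1 and 27914 on day 17. It was higher on day 17 by 1.76 ± 0.22 than on day 1 and by 1.85 ± 0.22 than on day -17 (limma adjusted p = 0.0018 and 0.000138). SPP1, osteopontin, was higher on day 1 than on day -17 (2.89 ± 0.94, limma adjusted p = 0.0481), with overlapping days. That call was lost without day -17 pool 1 or 3, day 1 pool 2 or 3, or day 17 pool 3 (0.0681 to 0.143), and under 5 other alternatives, among them quantile normalization and E. coli scaling.

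Markers of the cell types that could shift in a biopsy were set beside the caseins. Of the 8 luminal markers, 3 were higher and 0 lower on day 1 than on day -17, and 3 higher and 2 lower on day 17 than on day -17. Over all tested probe sets 12% were higher and 12.1% lower on day 1, and 21.7% and 24.8% on day 17 against day -17, which also holds for the lists that follow. The summed signal of the luminal markers was 16298 to 34426 on day -17, 25731 to 41511 on day 1 and 42540 to 46758 on day 17. A linear sum follows its brightest members. EPCAM, the brightest here, had means of 8882, 17738 and 27535, while KRT8 went from 4949 on day -17 to 1603 on day 17 and KRT19 from 3296 to 1355. Of 4 tested fibroblast markers, 0 were higher and 1 lower on day 1, and 3 were lower on day 17 than on day -17, with summed signals of 27672 to 35344, 14016 to 32211 and 12742 to 14437 on the 3 days. Of 4 adipocyte markers, 1 was higher and 2 lower on day 17 than on day -17, with summed signals of 6854 to 16860, 14190 to 19009 and 15186 to 17027. Most of that sum was FABP4, with means of 10579, 15902 and 15885. ADIPOQ went from 313 on day -17 to 13 on day 17 and LIPE from 853 to 13, so the sum does not show the lower members. Both lay below the level used for testing on every day 17 array, so the size of their fall is uncertain. Their day -17 pools ranged from 74 to 547 for ADIPOQ and from 257 to 1425 for LIPE. Myoepithelial sums were 17532 to 22937, 22049 to 27662 and 24414 to 32917, mostly ACTA2, with means of 18140, 22663 and 26100. Of 4 tested myoepithelial markers, 0 were called on day 1, and 3 were higher on day 17 than on day -17. Endothelial sums were 5304 to 8420, 5608 to 8070 and 5308 to 6561, with 1 of 4 lower in each comparison with day -17. Leucocyte sums were 1603 to 2056, 1063 to 3194 and 1025 to 1450. Of 4 tested, 1 was higher and 1 lower on day 1, and 1 was higher on day 17 than on day -17. No marker was listed at 0. The part of cell makeup in the casein changes was not tested. A ratio to the luminal markers cannot decide it, since those markers moved in opposite directions.

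Against the mean log2 signal of the 8 luminal markers on the same array, CSN1S2 gained 3.88 log2 from day -17 to day 1, CSN2 1.55 and CSN3 1.31 (exact permutation test over the 3 days, adjusted p = 0.00476 for each over the 4 genes). CSN1S1 gained 0.42 to day 1 and 1.18 to day 17, which did not pass (exact permutation adjusted p = 0.0679). In each of the 3 pool numbers it was lowest on day -17 and highest on day 17, and it passed with days permuted within pool numbers (exact permutation adjusted p = 0.0278, the smallest possible). It also passed without day -17 pool 1 (0.00714), the array with the lowest luminal level. The ratio of CSN1S2 to these markers was 1.45, -0.67 and 0.77 on day -17, 4.76, 4.11 and 4.31 on day 1, and 4.96, 5.12 and 5.15 on day 17. The call of CSN2 was lost without any 1 of the day 1 or day 17 pools, and that of CSN3 without day 1 pool 2 or 3 or any 1 of the day 17 pools (exact permutation adjusted p 0.0524 to 0.0619). After quantile normalization CSN1S2, CSN2 and CSN3 all missed the threshold (exact permutation adjusted p = 0.1 for each). The luminal mean averages markers that moved in opposite directions. For day 17 against day -17 the log2 difference was 1.65 for EPCAM, 2.28 for CLDN3 and 1.26 for CLDN4. It was -1.48 for KRT8 and -1.185 for KRT19, while KRT18, CDH1 and ELF3 did not pass.

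Genes whose log2 signal followed each casein gene most closely over the 9 arrays were listed among 5514 others, as a description, since arrays of a day share that day's level. CSN1S2 ran closest to the whey genes LALBA (Pearson r 0.9988) and WAP (0.9981), followed by KHDRBS3, SL44-1 and RHEB (0.9939 to 0.9966). CSN1S1 ran closest to TPT1, a translationally controlled protein (0.9979), PLIN2, a lipid droplet coat protein (0.9965), the translation initiation factor EIF1, MGST1 and EF1ALPHA (0.9919 to 0.9928). The differences of TPT1 were 0.46 log2 for day 1 against day -17 and 0.68 for day 17 against day 1, and those of PLIN2 0.74 and 0.97, beside 0.68 and 0.84 for CSN1S1. CSN2 ran closest to PEX14, PDCD6, HINT1, FAM69A and OAZ1 (0.9869 to 0.9918). CSN3 ran closest to HINT1, TNFSF13, C1QTNF12, the fatty acid synthase FASN and the chemokine CCL28 (0.9854 to 0.99).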

How the data were processed

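Mammary RNA pools of 3 days, 3 arrays each, were analysed. The deposited values are signal intensities, 1 linear intensity per probe set and array, made by the authors with MAS5 per the submitters' processing notes; its version was not given in the sources used here. The annotation of the platform gave 1 gene symbol for 10099 probe sets, several for 198 and none here for 13826. Tests left out 124 Affymetrix controls and any probe set under the 40th percentile of its array in more than 6 of the 9 arrays. Values on the log2 scale, without a pseudocount, were fitted on all 9 arrays with limma 3.58.1 in R 4.3.3 (lmFit, eBayes with an intensity trend), with day as the only term and an adjusted p of 0.05 as threshold; the code was tested on simulated data. A gene with several tested probe sets was represented by the brightest. Ratios within an array were tested by exact permutation. Named were, per list, direction and comparison, the 2 genes of largest change among those that passed, plus 11 genes whatever their result; ELF5 and FAM20C among these were not analysed here. The members, gene lists and alternatives were chosen with earlier results of these data known.

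Same-numbered pools deviated together in all 3 comparisons, by the correlation across probe sets of deviations from the day's mean. For day 1 against day -17 it was 0.235 to 0.506, against -0.387 to 0.113 between pools of unlike number. For day 17 against day -17 it was 0.105 to 0.130, against -0.0739 to -0.0421. For day 17 against day 1 it was 0.096 to 0.107, against -0.0768 to -0.0268. The main fit and the permutations over 1680 assignments did not use this pairing. The pool number was used as a replicate block only in alternatives, which for the ratios was added after seeing the data. Others were quantile normalization, median centring, E. coli control scaling, a pseudocount of 16, no filter, a 60th percentile filter, leaving out the intensity trend, the 6 compared arrays fitted alone, the mean over a gene's probe sets, and leaving out each array.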

Additional observations from a re-analysis of the deposited data

How the results depend on the processing

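All 4 casein calls for day 1 against day -17 held under the 19 alternatives tried. For day 17 against day 1 the count of 3 became 0 after quantile normalization and with E. coli scaling, 1 with median centring or without the intensity trend, and 1 to 4 without 1 pool. With E. coli scaling the differences were -0.1177 for CSN1S1, -0.2072 for CSN2, -0.1881 for CSN1S2 and -0.1614 for CSN3, and CSN1S1 for day 17 against day -17 stood at 0.2464. After quantile normalization they were 0.0582, 0.1284 and 0.03 for CSN1S1, CSN2 and CSN3. Median centring gave 0.7151 and no intensity trend 0.751 for CSN2, and 0.7609 and 0.7968 for CSN3, while CSN1S2 passed at 0.7701 in the 6 compared arrays. Without 1 pool the ranges were 0.6129 to 0.8453 for CSN2, 0.6551 to 0.9108 for CSN3 and 0.6151 to 0.8487 for CSN1S2. The E. coli setting moved the median of all tested probe sets to -0.385, -0.967 and -1.36 in the 3 comparisons, so directions there are relative to those shifts.

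Ratios are given as day 17 minus day -17. After quantile normalization CSN2 over CSN3 passed at 0.361, and against luminal markers CSN1S2, CSN2 and CSN3 missed the threshold at 3.988, 1.554 and 1.193. Without 1 pool CSN2 over CSN3 ran from 0.069 to 0.311, and against luminal markers CSN1S1 from 0.873 to 1.572, CSN2 from 1.713 to 2.783 and CSN3 from 1.512 to 2.472.

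With the replicate block of days permuted within pool numbers, chosen after seeing the data, the casein pairs CSN1S1 over CSN2 (-1.037), over CSN1S2 (-3.385) and over CSN3 (-0.843), CSN2 over CSN1S2 (-2.348) and CSN1S2 over CSN3 (2.542) missed the threshold, and CSN1S1 over luminal markers passed (1.176).

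Other directions turned with E. coli scaling. For day 17 against day 1 these were LALBA -0.1507, WAP -0.1282, PAEP -0.178, LTF -0.8041, NR3C1 -0.6313, STAT5B -0.7085 and NFIB -0.3558. For day 17 against day -17 they were PAEP -0.1986, NR3C1 -0.7197, CEBPD -0.3969 and NFIB -0.5432, and for day 1 against day -17 PAEP -0.02058 and NR3C1 -0.08844. LTF for day 17 against day 1 was -0.09969 after quantile normalization and ran from -0.1573 (day 17 pool 1) to 0.3931 without 1 pool, and STAT5A from -0.4017 to 0.002964 (day 1 pool 3). The mean over a gene's probe sets turned STAT5A (day 17 against day 1, 0.09526), STAT5B (0.04489 for day 1 and 0.3678 for day 17 against day -17) and CALU (day 17 against day -17, 0.08446); each casein gene has 1 probe set, so this setting gives it no other value. The cause was not tested.

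The replicate block, fixed or random, changed no casein call in limma: all 4 genes passed for day 1 against day -17 and 3 for day 17 against day 1. Over all 15519 tested probe sets the calls were 3736, 2116 and 7223 in the 3 comparisons; E. coli scaling gave 11723 for day 17 against day 1 and 12968 for day 17 against day -17. The calls fell to 2295 without day -17 pool 3 and to 2112 without day 1 pool 3 for day 1 against day -17, and to 1037 to 1400 for day 17 against day 1 without day 1 pool 2 or 3 or a day 17 pool. How far the brightest signals approach the upper limit of the scanner was not tested.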
